A study of Mus musculus with 15 samples.

Results

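The third round of serial transplantation gave 3 colon cancer organoid lines from liver metastases (Met3) and 3 from primary tumours (Primary3), and their chromatin accessibility is compared here. They are 6 of the 15 lines profiled, chosen by their sample titles, and all 43020 regions of the deposited table were considered. Organoids are epithelial cultures grown in a gel from dissociated tissue. Per the series' design text, lines grown from metastases or primary tumours were put back into the colons of immunocompetent mice, and new lines were grown from the tumours that formed. All 6 lines carry the genotype labelled AKP, and all came from C57Bl6 recipients. Met3 and Primary3 thus share the labelled genotype, host strain and round. They differ by the site from which each line was grown, and possibly by lineage through earlier rounds, which cannot be told apart from site here. The labels give neither the ages of the mice nor which line descended from which. The design text speaks of multiple lines per round without naming their mice, so p-values measure the spread among lines. For the tests of single regions, that spread was estimated over all 15 lines.

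The assay was ATAC-seq: a transposase cuts and tags DNA that is not wrapped tightly in nucleosomes. Such open DNA marks promoters and enhancers, and the set of open enhancers differs between cell types and between states of a tumour. In the intestine it is shaped by factors of the endoderm such as GATA6, which the series' title names. Each library was made from 50000 cells treated with the enzyme for 30 min. Genes near the regions were not analysed here, and regions are given by the names and mm9 coordinates of the table.

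The 3 Met3 libraries held 1777563, 2797725 and 1588088 counts in regions, and the Primary3 libraries 3051139, 285633 and 5916109. Primary3 replicate 2 is thus far shallower, with a median of 4 counts per region and 0 counts in 10020 regions, and it supplied 3.09% of the group's counts. The Met3 lines correlated with each other at r = 0.862 to 0.885 over the 39952 tested regions, and Primary3 replicates 1 and 3 at 0.929. Primary3 replicate 2 correlated with these at 0.719 and 0.732, and with the Met3 lines at 0.578 to 0.622. CPM below means counts scaled to a common library size with TMM factors, and the biological coefficient of variation was 0.274 in Met3 and 0.333 in Primary3.

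Between Met3 and Primary3, 4059 of the 39952 tested regions changed (10.2%) by edgeR's quasi-likelihood test at an adjusted p under 0.05. Of these, 2252 were more accessible in Met3 (5.64% of tested regions) and 1807 less accessible (4.52%), so 55.5% of calls were increases. This lean depended on the scaling, with 2023 increases and 2076 decreases after scaling by total counts, and 2197 and 2202 after removal of a lowess trend. Called changes were large: the median called increase was 4.23-fold and the median called decrease 3.92-fold. At least 4-fold increases were called at 1229 regions and at least 4-fold decreases at 862, and at least 8-fold at 444 and 249. The smallest called increase was 0.565 on the log2 scale and the smallest called decrease -0.562, so changes under about this size could not be called with 3 lines a group. Every Met3 line lay above every Primary3 line at 2204 of the 2252 increases, and below at 1626 of the 1807 decreases. Among all tested regions, called or not, this held for 7180 (18.0%) and 5314 (13.3%). The fit without the shallow Primary3 replicate 2 called 3530 regions, 1771 higher and 1759 lower. The count moved more with other lines, with 1831 regions without Met3 replicate 1, 2644 without Met3 replicate 2, 1483 without Primary3 replicate 1 and 1950 without Primary3 replicate 3.

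**Figure D1:**
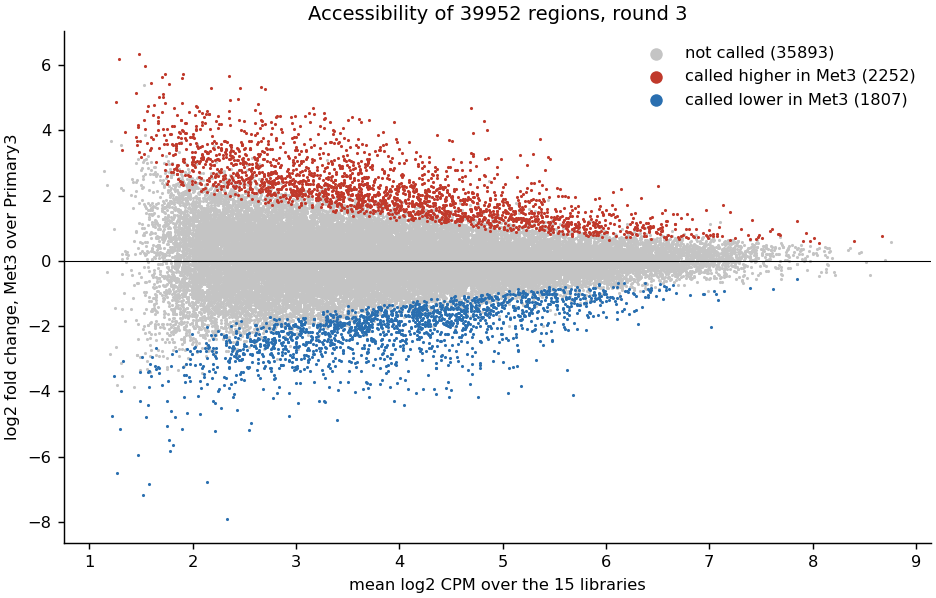
Each point is a region, with its mean log2 CPM over the 15 libraries on the x axis and its log2 fold change of Met3 over Primary3 on the y axis. The 2252 regions called higher (red) and 1807 called lower (blue) span the whole range of signal, and the fold change needed for a call narrows as signal grows.

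Few of the called regions had next to no counts in either group. Among the increases, 21 held 3 or fewer counts over all 3 Primary3 libraries, which sum to 9252881 counts. Among the decreases, 37 held 3 or fewer counts over the 3 Met3 libraries, which sum to 6163376. Over all tested regions, 35 and 77 were that low.

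The largest increases are described among called regions with at least the median signal and no overlap of lines, a choice that leaves 1092 increases and 945 decreases. At peak_473 (chromosome 1, 31657365 to 31658317) the Met3 lines held 109.9, 116 and 122 CPM and the Primary3 lines 4.20, 6.37 and 4.30, with a log2 fold change of 4.70 ± 0.53 (SE). The 3 Met3 lines were nearly equal there and stood far above each Primary3 line. The 6.37 CPM of the shallow Primary3 replicate 2 rests on 2 counts, there and at the other regions of this paragraph. At peak_68880 (chromosome 4, 138460303 to 138462004) the Met3 lines held 99.0, 74.0 and 77.05 CPM against 2.80, 6.37 and 4.99, higher by 4.28 ± 0.45 in log2 units (edgeR adjusted p = 1.31e-05). The most accessible of these regions in Met3 was peak_49393 (chromosome 19, 38165938 to 38167133), with 206.5, 156 and 102 CPM against 11.9, 6.37 and 9.63. The Met3 lines varied at this region, yet the lowest Met3 line remained far above the highest Primary3 line. The smallest adjusted p among these increases was at peak_37314 (chromosome 16, 48887939 to 48889031), where the lines held 117, 68.3 and 96.5 CPM against 6.99, 6.37 and 7.39 (log2 fold change 3.70 ± 0.36, edgeR adjusted p = 7.76e-06). That region lies 104.6 kb from the next one in the table.

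The other 8 of the 12 largest increases had log2 fold changes between 3.64 and 4.27. They were peak_5764 (chromosome 1, 191635628 to 191636120), peak_59720 (chromosome 3, 35032351 to 35033072), peak_73652 (chromosome 5, 73047502 to 73048183) and peak_31531 (chromosome 15, 49984000 to 49985617). They also included peak_91641 (chromosome 7, 111886022 to 111887755), peak_10067 (chromosome 10, 125375312 to 125376557), peak_8840 (chromosome 10, 82836847 to 82837639) and peak_80465 (chromosome 6, 26658411 to 26659546). The size at peak_5764 (4.27) rested on the Primary3 lines, with 5.42 without Primary3 replicate 1 and 3.62 without replicate 3. The same held for peak_73652 (3.95), with 4.71 and 3.25. By adjusted p, peak_81909 (chromosome 6, 52149950 to 52151824) also ranked among the first 4, with 82.6, 102 and 65.4 CPM in Met3 against 6.64, 3.19 and 11.35 in Primary3. The 3.19 is that of Primary3 replicate 2 and rests on 1 count.

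The largest decrease by the same criteria was at peak_74007 (chromosome 5, 77813000 to 77814422). The Met3 lines held 4.25, 1.91 and 1.94 CPM there and the Primary3 lines 67.8, 12.7 and 76.5, a difference of -4.43 ± 0.52 in log2 units (edgeR adjusted p = 2.56e-05). The low Primary3 value is that of replicate 2 and rests on 4 counts. At peak_82217 (chromosome 6, 55288980 to 55289601) the Met3 lines held 1.22, 5.72 and 4.53 CPM against 93.7, 82.8 and 65.2 (log2 fold change -4.31 ± 0.61). The smallest adjusted p among these decreases was at peak_89449 (chromosome 7, 53861856 to 53862926), with 3.04, 11.8 and 2.59 CPM against 113, 127 and 107.5 (log2 fold change -4.16 ± 0.41, edgeR adjusted p = 7.76e-06). Met3 replicate 2 was the highest of the Met3 lines there, and without it the log2 fold change was -5.33. The most accessible of these regions in Primary3 was peak_45386 (chromosome 18, 44631275 to 44633084), with 229, 162 and 248 CPM against 6.07, 20.6 and 9.06 in Met3. Its log2 fold change was -4.11 ± 0.66, and -4.85 without Met3 replicate 2.

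Its neighbourhood holds another of these regions, peak_45393 (chromosome 18, 44694878 to 44695702), with 3.04, 3.43 and 6.47 CPM in Met3 against 56.3, 66.9 and 72.7. The remaining 7 of the 12 largest decreases had log2 fold changes between -4.175 and -3.92. On chromosome 6 they were peak_80765 (31098423 to 31099814) and peak_82167 (54978534 to 54979667). Elsewhere they were peak_103722 (chromosome 9, 71495932 to 71496796), peak_73574 (chromosome 5, 67691154 to 67691939) and peak_97757 (chromosome 8, 89446035 to 89447920). The last were peak_10378 (chromosome 11, 3485868 to 3486585) and peak_53403 (chromosome 2, 58027019 to 58028612). By adjusted p, peak_95973 (chromosome 8, 42047317 to 42049149, log2 fold change -3.11 ± 0.33) and peak_12729 (chromosome 11, 59197780 to 59199155, -2.58 ± 0.28) were also named.

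**Figure D2:**
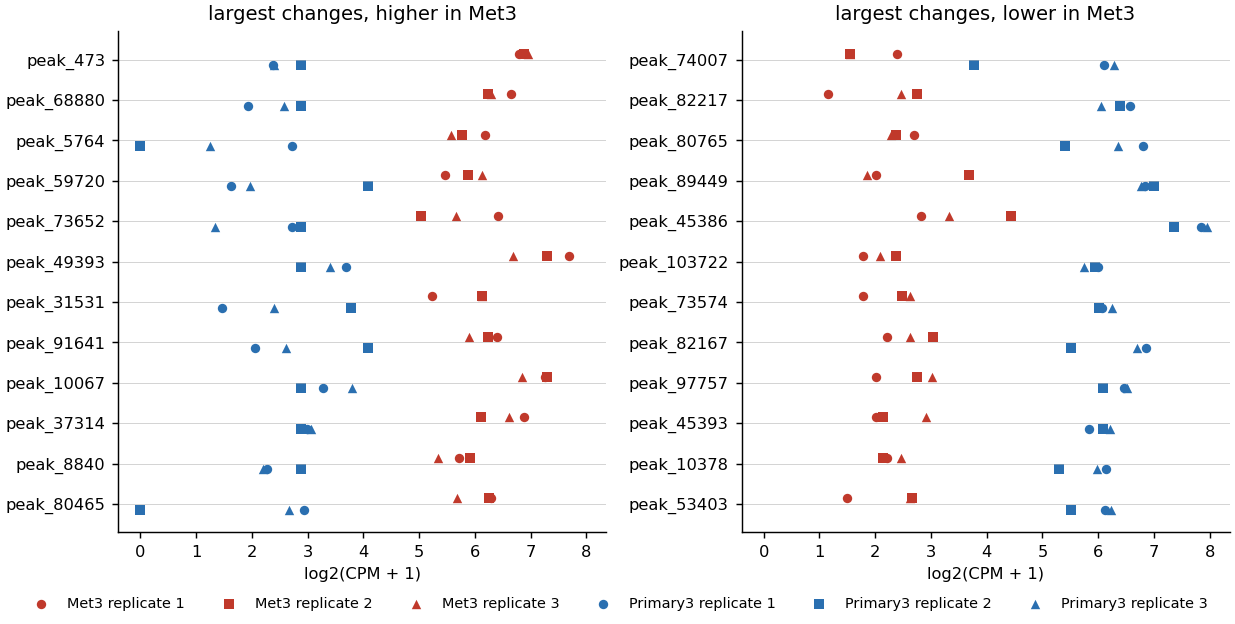
For the 12 largest increases (left) and 12 largest decreases (right), each point is a line's log2(CPM + 1), with Met3 in red and Primary3 in blue and a symbol for each replicate. No Met3 line meets a Primary3 line at any of the 24 regions, which were chosen for that. The lone blue squares at 0 (peak_5764 and peak_80465) and the low one at peak_74007 are the shallow Primary3 replicate 2.

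To see whether the calls extended to a line that had no part in making them, each line was left out in turn and then read at the regions called without it. The share of the library's counts that fell in those regions was used. At the 1047 increases called without Met3 replicate 1, that line had 4.85% of its counts, the other Met3 lines 4.535% to 4.56% and the Primary3 lines 1.125% to 1.295%. Met3 replicates 2 and 3, each left out in turn, had 5.54% and 6.38%, where their fellow lines had 6.155% to 7.08% and 7.00% to 7.99%. In each case the left-out Met3 line stood with Met3, if somewhat lower for replicates 2 and 3. The shallow Primary3 replicate 2 had 2.43% of its counts at the 1771 increases called without it, close to the 2.12% to 2.25% of the other Primary3 lines and below the 6.83% to 7.93% of Met3. At the 1759 decreases called without it, it had 5.83%, below the 7.05% to 7.09% of its fellow lines and above the 1.80% to 2.31% of Met3. Though shallow, that line thus had the pattern of its group. All 6 left-out lines lay nearer to their own group than to the other at both kinds of region.

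The lines of other rounds were read at the same regions. They are outside the contrast of Met3 with Primary3. Yet the fit that made the calls used them for its filter, scaling and estimate of spread. Lines of Met2 had 6.52% to 8.27% of their counts at the 2252 round 3 increases and those of Primary2 had 3.98% to 4.12%. Met1 lines lay between, at 4.98% to 5.93%. At the 1807 decreases, Met2 lines had 2.62% to 3.44%, Met1 lines 3.62% to 4.52% and Primary2 lines 6.29% to 6.58%. The Met1 and Met2 lines did not overlap with the Primary2 lines in either set, and the Met1 lines were nearer to Primary2 than the Met2 lines were. Met3 and Primary3 differ at these regions by choice. Of the 2252 increases, Met1 was also called higher than Primary2 at 185 (8.215%, against 1.46% of all tested regions), and lower at 14. Of the 1807 decreases, Met1 was also called lower at 334 (18.5%, against 2.81%), and higher at 9. The median log2 difference between Met1 and Primary2 was 0.49 at the increases and -0.76 at the decreases, against 0.04 over all tested regions. Met2 against Primary2, with 6.21% of tested regions called in all, was called higher at 31.9% of the increases (3.44% of all tested regions) and lower at 34.0% of the decreases (2.77%). Both of these comparisons use the Primary2 lines, and the labels do not give descent between lines of different rounds.

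**Figure D3:**
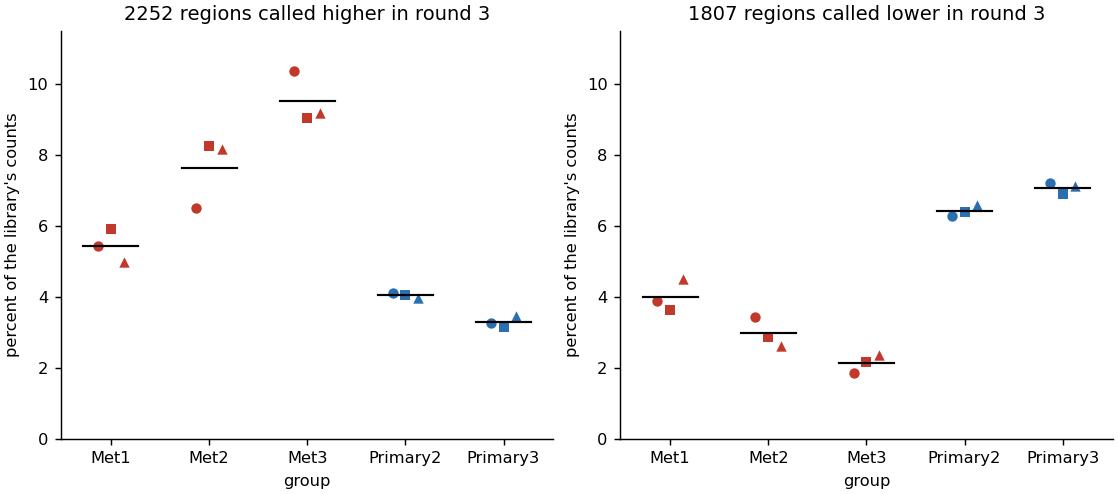
Each point is a line, in its group on the x axis, and the y axis is the percent of the line's counts in the regions called higher (left) or lower (right) in round 3, with a black bar for the group mean. The regions were chosen by the contrast of Met3 with Primary3. Only Met1, Met2 and Primary2 lie outside that contrast, though they shared its fit. Met1 lies between Met2 and Primary2 in both panels.

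Among the 24 largest changes, 11 of the 12 increases and 10 of the 12 decreases were also called in Met2 against Primary2. The 3 exceptions are peak_59720, peak_103722 and peak_45386. Of all round 3 increases 31.9% were called higher in round 2, and of all decreases 34.0% were called lower. Over all tested regions these shares were 3.44% and 2.77%. The 24 were chosen for size and for signal over all 15 libraries, Met2 and Primary2 included, so their rate is a description. At peak_103722 the Met2 lines held 30.7 ± 37.7 CPM and the Primary2 lines 22.6 ± 5.63 (SD, n = 3 each), where Met3 held 2.43, 4.20 and 3.24 and Primary3 62.6, 60.5 and 52.45. The difference between metastasis and primary lines at that region changed by -4.50 on the log2 scale between the rounds. Yet this change did not pass correction over all regions (edgeR adjusted p = 0.358, unadjusted 7.79e-05). The region was also chosen for its large round 3 difference, which enters that value. At peak_59720 the Met2 and Primary2 lines held 48.5 ± 31.4 and 36.0 ± 26.0 CPM (adjusted p of the difference 0.561, edgeR), and at peak_45386 67.1 ± 76.7 and 163 ± 18.6 (adjusted p 0.647, edgeR). The Met2 lines were widely spread at each of these regions. Over all regions 0 differences between the rounds passed (0.0%, edgeR), with 2568 of 39952 at an unadjusted p under 0.05. With no difference at any region, a share of about 0.05 would still be that low.

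Call rates were also counted by width, signal and distance to the next region, as a description with no test. These properties were not separated from each other, except distance within classes of signal. Regions narrower than 500 bp were called higher in 6.11% of cases and lower in 2.70%, so that 69.4% of their calls were increases. Among regions of 1500 bp or more the shares were 5.43% and 5.86%, with 48.1% increases. With regions ranked by signal into 5 classes of equal size, the lowest class had 467 increases and 233 decreases, the next to highest 461 and 482, and the highest, where counts are most precise, 422 and 313. In 5 classes by the authors' score, calls were fewest in the lowest (279 and 180), and the highest again leaned to increases (490 and 274).

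Isolated regions leaned most to increases. Of the 1287 tested regions that lie 100 kb or more from the next region of the table, 125 were called higher in Met3 (9.71%) and 30 lower (2.33%), so 80.65% of their calls were increases, against 55.5% of calls over all tested regions. The class and its limit were chosen after the values were seen. Among regions under 5 kb from the next, 946 were higher and 755 lower (55.6% increases). The lean was found on 19 of 20 chromosomes and in the alternatives run, between 72.2% and 84.3% of calls, with 74.4% without Primary3 replicate 2. Within the 5 classes of signal, from lowest to highest, isolated regions had 61 increases and 11 decreases, 31 and 6, 20 and 5, 12 and 5, and 1 and 3. The other regions had 406 and 222, 385 and 335, 466 and 433, 449 and 477, and 421 and 310. The highest class of isolated regions held too few calls to show a lean. In round 2, whose libraries are others but shared the fit, the 1287 isolated regions had 97 increases and 18 decreases. The other tested regions had 1278 and 1087 in round 2. Over all tested regions, 3.44% were increases and 2.77% decreases in that round. As a share of all counts, the 1874 isolated regions of the whole table took 1.94%, 2.07% and 2.02% in the Met3 lines and 1.52%, 1.83% and 1.80% in the Primary3 lines. The Met3 lines were higher without overlap, by an amount for which the exact permutation test over 3 against 3 lines gives its smallest p, 0.1.

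A like lean appeared in wide windows with few regions. Over all 266 windows of 10 Mb, every Met3 line lay above every Primary3 line in 63 and below in 54. Of the 58 windows of 10 Mb with the fewest tested regions (20 to 79), every Met3 line lay above every Primary3 line in 23 and below in 2. In the 52 windows with the most regions (219 to 468) this was 7 above and 16 below. The classes between these, from fewer to more regions, had 13 above and 9 below, 9 and 16, and 11 and 11. The median difference was small, at 0.08 in the windows with the fewest regions and -0.045 in those with the most. Round 2 had 16 above and 3 below in the windows with the fewest regions and 4 and 18 in those with the most. 

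**Figure D4:**
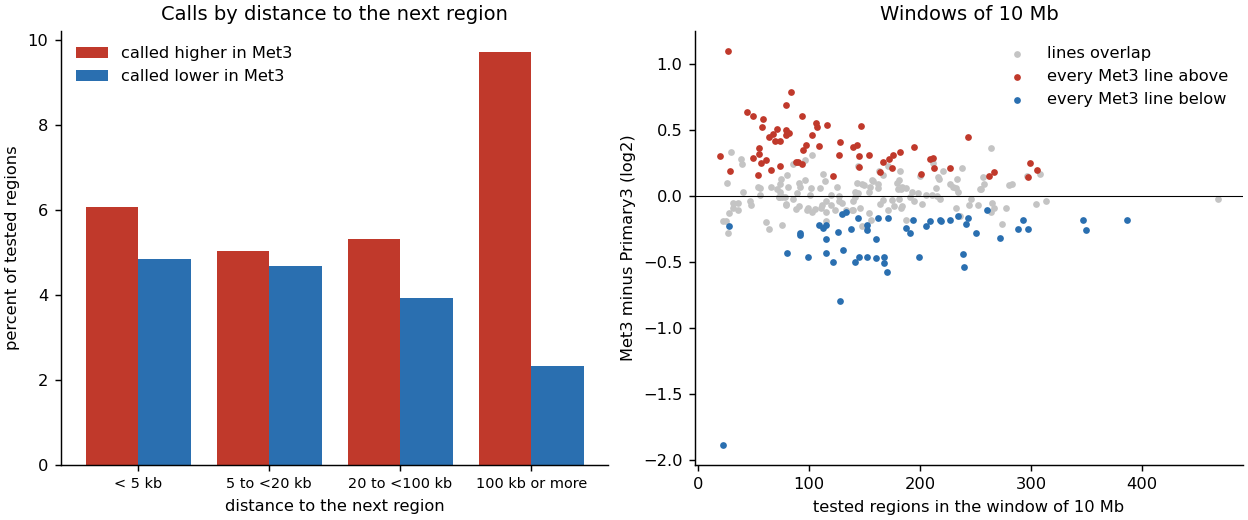
Left, the percent of tested regions called higher (red) or lower (blue) in Met3, by distance to the next region of the table. Right, each point is a window of 10 Mb, with its number of tested regions on the x axis and the difference of its median signal between Met3 and Primary3 on the y axis. Isolated regions have 9.71% increases against 2.33% decreases, and both the highest difference (1.10) and the lowest (-1.89) are in windows with few regions (27 and 23).

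Called regions also lay side by side. Runs of 3 or more neighbouring tested regions called in the same direction numbered 153, of which 80 were increases with 277 regions and 73 decreases with 295. The median span was 38.4 kb for runs of increases and 46.3 kb for runs of decreases. A few runs of increases were far longer: 11 of the 80 spanned 500 kb or more, up to 2938 kb, and the longest run of decreases spanned 446 kb. Since each region of a run was chosen by its call, the sums below are a description. The number of runs depended on single lines, falling to 26 without Primary3 replicate 1, 36 without Primary3 replicate 3, 41 and 62 without Met3 replicates 1 and 2, and 74 without Met3 replicate 3.

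The longest run of increases held 9 regions on chromosome 1 (69490888 to 69704987). Its summed signal was 196, 206 and 229.9 CPM in the Met3 lines and 29.0, 28.7 and 34.7 in the Primary3 lines. The other long runs of increases had 6 regions each. One on chromosome 15 (14571116 to 15803625) held 114, 117.5 and 100.4 CPM in Met3 against 3.85, 0 and 6.71. Another on chromosome 15 spanned 2938 kb (47836138 to 50774524), with 97.8, 181 and 147 against 12.2, 19.1 and 9.63 CPM. In both runs of chromosome 15 the sum was thus low in every Primary3 line and higher in each Met3 line. These sums cover the called regions only, not the DNA between them. On chromosome 10 (124147949 to 125413924) the run held 267, 273 and 200.7 CPM against 19.2, 12.7 and 25.1. The run on chromosome 4 (60717022 to 61314439) was uneven among the Met3 lines, with 199.8, 30.5 and 126 CPM against 2.45, 6.37 and 3.955. Met2 also varied there (51.9 ± 66.6 CPM, SD, n = 3).

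Single regions of these runs had few Primary3 counts. At peak_31522 (chromosome 15, 47836138 to 47836464) the Met3 lines held 27, 30 and 23 counts and the Primary3 lines 0, 0 and 2, a ratio of 60.05 after scaling by total counts (exact 95% interval 16.1 to 504, counting error only). At peak_65407 of the chromosome 4 run (60868302 to 60868588) the counts were 59, 4 and 34 against 0, 0 and 2 (ratio 72.8, interval 19.6 to 609.8), and at peak_30771 of the first chromosome 15 run (15406542 to 15406830) 18, 28 and 2 against 0, 0 and 2 (ratio 36.0, interval 9.45 to 306). These 3 regions had fitted log2 fold changes of 5.73, 6.19 and 4.87 that depend on edgeR's prior count, since without Primary3 replicate 3 the other Primary3 lines were at 0. Without that line the fitted values were 7.74, 8.21 and 6.88. The call at peak_65407 was lost without Primary3 replicate 1 or 3 (edgeR adjusted p 0.06396 and 0.05295), and its log2 fold change was 5.43 without Met3 replicate 1 and 6.83 with the replicate number as a block. That at peak_30771 was lost without Met3 replicate 1 or 2 or Primary3 replicate 1 or 3 (edgeR adjusted p 0.0619 to 0.117). At peak_10065 of the chromosome 10 run (125354485 to 125354887) the log2 fold change was 4.20 ± 0.81, and 5.97 without Primary3 replicate 1 and 3.35 without replicate 3. At peak_1570 of the chromosome 1 run (69514614 to 69514866) it was 4.29 ± 1.11, and the call was lost without Met3 replicate 1 or Primary3 replicate 1 or 3 (edgeR adjusted p 0.0515 to 0.128).

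The longest run of decreases held 10 regions on chromosome 8 (46495546 to 46692814). Its summed signal was 86.25, 102 and 110.1 CPM in Met3 against 452.5, 331 and 407 in Primary3. On chromosome 18 a run of 9 regions (42869058 to 43037268) held 31.6, 40.4 and 39.5 CPM against 321, 261 and 286. The Met3 lines were close to each other in both runs. A run of 8 regions on chromosome 7 (151110068 to 151238869) held 63.2, 42.0 and 81.6 CPM against 380.4, 306 and 307. Runs of 7 regions lay on chromosome 11 (54014726 to 54063555), with 86.25, 105 and 82.2 against 411, 284 and 397 CPM, and on chromosome 18 (80726630 to 80785192), with 103, 102 and 137 against 408, 299.5 and 320.5. In Met2 against Primary2, 9, 8, 8, 7 and 7 regions of these 5 runs had the same sign, and 4, 4, 4, 5 and 3 were called. Over all tested regions 48.4% were negative in round 2 and 2.77% called lower. Of all round 3 decreases, 93.2% were negative there and 34.0% called lower. In the 5 runs of increases, every region had the same sign in round 2. In the order given above, 3, 5, 5, 2 and 0 of their regions were called, against 3.44% of all tested regions called higher.

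Within these runs, the largest decreases were at peak_96107 (chromosome 8, 46625833 to 46626507, log2 fold change -3.71 ± 0.87), peak_12379 (chromosome 11, 54021960 to 54023278, -3.94 ± 0.59) and peak_47244 (chromosome 18, 80745554 to 80746041, -2.63 ± 0.43). At peak_94025 (chromosome 7, 151223728 to 151224587) the value was -3.11 ± 0.48, and -4.01 without Met3 replicate 3, whose 15.5 CPM stood above the 4.25 and 3.82 of the other Met3 lines. At peak_45339 (chromosome 18, 42896269 to 42896980) it was -4.17 ± 1.08. That call was lost without Met3 replicate 1 or 2 or Primary3 replicate 1 or 3 (edgeR adjusted p 0.0555 to 0.0766).

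Calls were spread unevenly over chromosomes. On chromosome 8, 11.1% of regions were lower in Met3 and 3.57% higher, and on chromosome 18, which carries Apc and Gata6 per RefSeq, 9.97% were lower and 3.99% higher. Chromosome 1 was the reverse, with 10.1% higher and 2.695% lower, followed by chromosomes 13 (7.93% and 3.41%) and 5 (7.55% and 2.055%). The median signal of whole chromosomes moved the same way. For each line, each region's log2 CPM was set against its average over the 15 libraries, and the chromosome's median of this deviation was taken relative to the line's median over all regions. On chromosome 8 the Met3 lines stood at -0.18, -0.13 and -0.08 and the Primary3 lines at 0.23, 0.26 and 0.28. On chromosome 18 they stood at -0.19, -0.13 and -0.16 against 0.22, 0.18 and 0.23, and on chromosome 1 at 0.14, 0.11 and 0.20 against -0.10, -0.21 and -0.08. Met3 lines lay above all Primary3 lines on 4 chromosomes (1, 9, 13 and 15) and below on 7 (2, 7, 8, 11, 16, 17 and 18). With 3 against 3 lines the exact 2-sided permutation test cannot go below p = 0.1, which each of these 11 reached (0.182 adjusted over 20 chromosomes). A shift of a chromosome's copy number and a shift of its accessibility cannot be told apart in these counts.

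On chromosome 5, where calls leaned to increases, the Met3 lines did not share 1 shift. Its median stood at 0.31 in Met3 replicate 1, -0.15 in replicate 2 and 0.12 in replicate 3, against -0.12, -0.12 and -0.07 in Primary3, so the groups overlapped. The Met3 lines also differed on chromosomes 6 (-0.06, 0.14 and -0.19) and 10 (0.07, 0.12 and -0.16). The Primary3 lines were closer to each other on these 3 chromosomes, with a range of at most 0.19 on any chromosome. After subtraction of every library's medians by chromosome, calls numbered 3939, of which 3441 were among the 4059. Chromosome 8 then had 103 increases and 109 decreases, against 63 and 196 before. Chromosome 18 had 84 and 89, against 58 and 145, and chromosome 1 had 153 and 129, against 270 and 72. Chromosome 5 had 139 and 101, against 191 and 52, so its lean also shrank.

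Windows of 10 Mb showed where the shifts were strongest. All 9 windows of chromosome 18 were lower in Met3 (-0.80 to -0.08), with the lowest from 40000001 to 50000000, where 37 of 128 regions were called lower and 1 higher. It includes peak_45386, peak_45393 and the run at 42869058. The last window of chromosome 8, from 130000001, held only 23 regions, of which 12 were called lower and 0 higher. Its difference of -1.89 was the lowest of the 266 windows, with -1.21, -1.12 and -0.53 in Met3 against 0.72, 1.16 and 0.94 in Primary3. The highest was 1.10, in the last window of chromosome 17, from 90000001 (27 regions, 4 called higher and 0 lower). On chromosome 9, where 9 of 13 windows were higher in Met3, the window from 110000001 was lower by 0.58 and held 26 decreases and 2 increases. The windows before and after it also lay below without overlap, at -0.44 and -0.50. In round 2 these windows of chromosome 9, in order along it, differed by 0.10, 0.01 and -0.16, with overlap of lines. In the other windows named, round 2 differed by -0.86 on chromosome 18, -1.29 on chromosome 8 (lines overlapping) and 0.75 on chromosome 17.

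**Figure D5:**
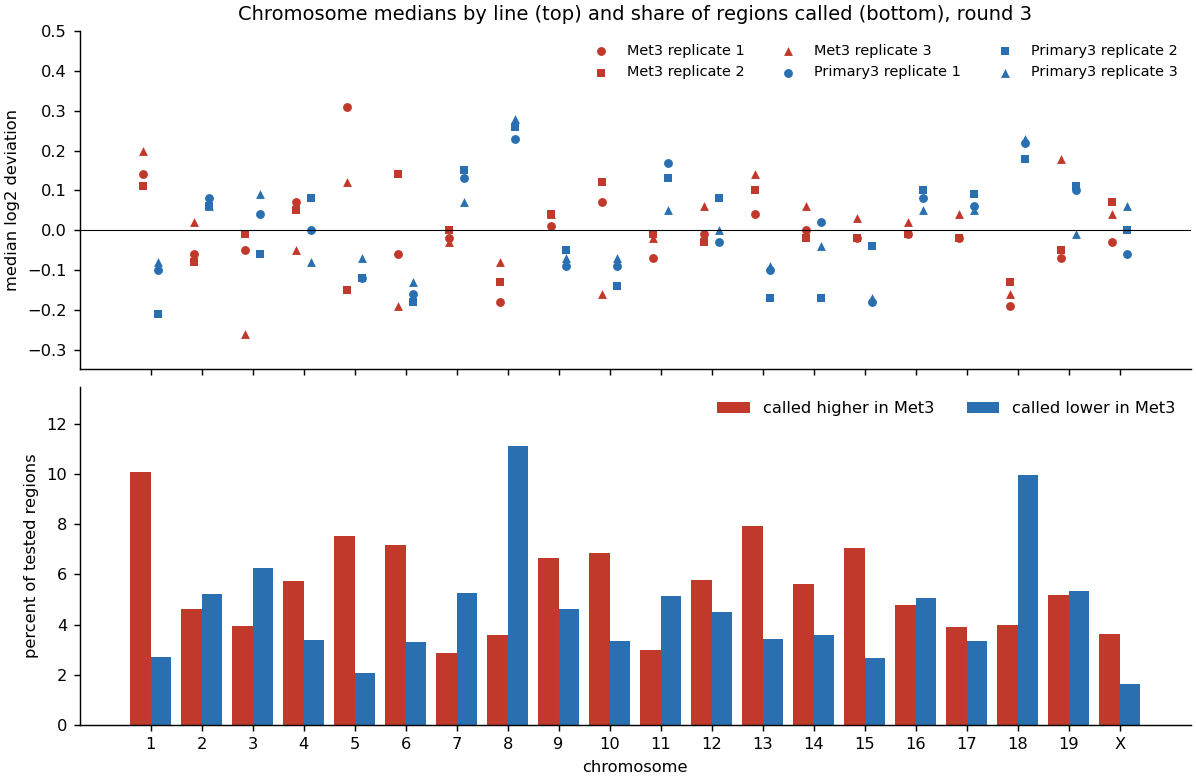
Top, each point is a line's median log2 deviation on a chromosome, with Met3 in red, Primary3 in blue and a symbol for each replicate. Bottom, the bars give the percent of tested regions of that chromosome called higher (red) or lower (blue) in Met3. The groups part most on chromosomes 8, 18 and 1, and the Met3 lines scatter on chromosomes 5, 6 and 10.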

How the data were processed

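Chromatin accessibility was measured in 15 organoid lines, 3 in each of 5 groups named by the labels. The authors deposited raw counts per region and library, in whole numbers. Per the submitters' processing notes, Bowtie, Picard, SAMtools, MACS2, bedtools and mm9 were used, with no roles or versions. Region names show that regions were called over all samples together, and shifting for the transposase, duplicate removal and mitochondrial filters are not given in the sources used here.

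Counts were fitted with edgeR 4.0.16 in R 4.3.3 (quasi-likelihood test, robust, TMM scaling, filterByExpr with a minimum count of 10 and minimum total of 15) on all 15 libraries with 5 group means. Met3 was contrasted with Primary3, with Benjamini-Hochberg adjustment over the 39952 tested regions. In counts simulated for this comparison over 39952 regions, the changed regions were drawn only from those with at least the median signal. The test recovered 14 of the 100 true 2-fold differences and 79 of the 100 true 4-fold differences, with 4.12% of calls false. The simulated share of changed regions was far below the 10.2% called in the data, and recovery at lower signal was not simulated. Chromosome medians used log2 CPM with a prior count of 2 and an exact permutation test over lines (scipy 1.17.1). Windows were 10 Mb with at least 20 regions.

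Named regions are, in each direction, the 12 largest fold changes and 4 smallest adjusted p among called regions with at least the median signal (3.79 log2 CPM) and no overlap of lines, and the largest change in each of the 5 longest runs. The 8 alternatives and 6 fits without a line include DESeq2 1.42.0, and another was chosen after seeing the data. The groups, regions and lists were chosen with earlier results of these data known. Intervals cover counting error only.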

Additional observations from a re-analysis of the deposited data

How the results depend on the processing

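The number of regions called was 4059 and lay between 3306 and 6032 under the 8 alternatives listed for it: 5052 with DESeq2, 4099 with scaling by total counts, 3943 with no filter, 3365 with a minimum count of 30, 6032 in the fit of only Met3 and Primary3, 3939 with chromosome medians removed and 4399 with a lowess trend removed. The fit of only these groups without Primary3 replicate 2, chosen after seeing the data, called 6984. Leaving out each line in turn gave 1483 to 3530 calls, with fewer samples in the fit. The 153 runs became 327 in the fit of only Met3 and Primary3, 363 in that fit without Primary3 replicate 2, and 26 to 135 with a line left out. With the replicate number as a block, 3306 regions were called, of which 3235 were among the 4059. Same-numbered Met3 and Primary3 lines had correlations of 0.0114, 0.00883 and 0.0203 between their deviations from the group means. Differently numbered lines had -0.0414 to 0.0241. No pairing by number was thus visible, though 3 lines a group, of which 1 is shallow, cannot exclude it. Of 549 values of named regions under the alternatives, 536 kept their direction and their side of the threshold and 13 kept their direction only, all 13 with a line left out. Of 180 values of chromosomes, 178 moved by less than the spread between lines. As shares of counts, the differences on chromosomes 9 and 11 were 0.13 and -0.09. Depth limits Primary3 replicate 2 most, with a median of 4 counts per region.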
